A study of Mus musculus with 2 samples.

Results

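Mural cells of the mouse spinal cord were examined in a single-cell RNA-seq library of CD133-sorted cells. They were chosen by a rule on gene counts, and 254 of the 25411 barcodes of the non-traced library met it (0.9996%, exact 95% interval 0.881 to 1.13), out of 30236 barcodes in both libraries. Both libraries were made from spinal cord of adult C57BL/6j mice aged 10-12 weeks with the genotype Clec9acre/creR26LSLtdTomato/LSLtdTomato. In these animals Cre is made from both Clec9a alleles, and the tdTomato reporter on both R26 alleles is switched on by Cre, so that every group carried the same alleles and no wild-type control was used here. Clec9a encodes DNGR-1, a dendritic cell receptor. Traced cells are those in which this gene is or was active and those that descend from such cells. The paper calls mice of this genotype Clec9a-deficient. After depletion of myelin, live CD45- CD133+ cells were sorted into a traced and a non-traced tube, each sequenced as 1 library. How many animals went into each sort was not given in the sources used here. With 1 library per group no test was possible, and every interval below covers counting error only, not differences between animals or sorts. Intervals on levels and folds also leave out the spread between cells.

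The rule asked for a unique molecular identifier (UMI, a tag for 1 captured RNA molecule) of at least 4 of 10 mural genes (Pdgfrb, Kcnj8, Myl9, Vtn, Rgs5, Higd1b, Ndufa4l2, Acta2, Tagln and Myh11). It also asked that 8 endothelial genes together made up under 0.5% of the UMIs of the cell, and that at most 2 of 6 ependymal genes had a UMI. Within it, 113 cells with a UMI of 3 or more of Acta2, Tagln, Myh11 and Cnn1 are called smooth muscle-like (44.5%, exact 95% interval 38.3 to 50.8), and the other 141 are called contractile-low. Since the cells were selected on these genes, their levels are given as descriptions and support nothing.

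Mural cells sit on the outer side of the endothelium embedded in the vascular basement membrane. Smooth muscle cells form contractile rings around arteries and arterioles and a looser cover on veins, and they shorten by sliding actin filaments along smooth muscle myosin. Pericytes lie along capillaries, depend on PDGF-B from the endothelium acting through PDGFRβ, and in the central nervous system take part in the blood-brain and blood-spinal cord barriers. The ATP-sensitive potassium channel of these cells is built from a pore subunit, encoded by Kcnj8, and a sulphonylurea receptor, encoded by Abcc9.

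Smooth muscle genes are classically switched on through the CArG box, a site of CC, 6 bases of A or T, and GG that binds serum response factor together with its partner myocardin. RefSeq promoter windows (GRCm38.p6, 250 bases before each start site) were at hand for 21 of the 28 genes that made up the contractile list and the 4 contractile genes of the rule, in 24 windows. Tagln and Myh11 were among the genes without a window, so the box was not looked for in them. The exact box was present in 2 of the 24 windows (8.33%) against 1.47% of all 32851 windows. A looser form, in which 1 of the 6 middle letters may be any base, was present in 5 windows (20.8%) against 8.59% of all windows. The looser form was chosen after Acta2 showed no exact match, and the box reads alike on both strands. The matches are shown with up to 10 flanking bases because they belong to the contractile genes described below, with the box in capitals and the letters on the strand of the gene.
Myl6, exact, chr10:128493040-128493069 (-), 50 bases before the start: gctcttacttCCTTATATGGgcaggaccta
Vcl, exact, chr14:20929161-20929190 (+), 227 bases before the start: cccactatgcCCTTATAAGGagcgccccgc
Acta2, looser, chr19:34255438-34255467 (-), 84 bases before the start: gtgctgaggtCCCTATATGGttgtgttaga
Acta2, looser, chr19:34255388-34255417 (-), 34 bases before the start: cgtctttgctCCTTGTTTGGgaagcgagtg
Crip1, looser, chr12:113151906-113151935 (+), 96 bases before the start: aaccagatgaCCATTCTTGGccagtcggcc
Crip1, looser, chr12:113151984-113152011 (+), 18 bases before the start: gggggcggggCCTTAAAGGGcagggcca
Pdlim3, looser, chr8:45885377-45885406 (+), 100 bases before the start: tctctcacttCCAAAGTTGGagctctcctt
Of the pericyte list, 17 of 20 genes had a window, and 3 of their 28 windows (10.7%) held the looser form and 0 the exact form. The windows of Kcnj8 and Abcc9, neighbours on chromosome 6 (142564837 to 142571614 and 142587862 to 142702315, minus strand, GENCODE M21 on GRCm38), held neither form, which says only that these letters were not in those windows. The sites of Acta2, Myl6 and Crip1 lie before a RefSeq start but inside the span that GENCODE M21 annotates for the gene. These spans are 34241090 to 34255590 on chromosome 19, 128490860 to 128494145 on chromosome 10 and 113146316 to 113153879 on chromosome 12. The sites of Vcl and Pdlim3 lie before the GENCODE span.

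The cells carried the mural markers strongly. A median of 8 of the 10 mural genes had a UMI (range 4 to 10). Levels are given as CPM, a gene's UMIs summed over the cells of a group and scaled to the same total in every group. Pdgfrb was at 763 CPM, Vtn at 8524 and Rgs5 at 5867, against 1.42, 23.7 and 285 CPM in 18738 endothelial cells of the same library, which had themselves been chosen to hold few mural genes. They were not free of endothelial RNA: 7 of the 254 cells had no UMI of the 8 endothelial genes (2.76%, exact 95% interval 1.12 to 5.596), 165 cells held a UMI of Cldn5, the tight junction gene of brain endothelium (64.96%), and the 8 genes made up a median of 0.094% of UMIs. That share was 2.844% in endothelial and 0.041% in 1073 ependymal cells. They are therefore described as mural cells low in endothelial RNA. Depth was lower than in those references, with a median of 4789 UMIs per cell (range 1011 to 20791) against 6697 and 7013. Within the mural cells, the smooth muscle-like ones had a median of 6759 UMIs and the contractile-low ones 3905. The same rule found 0 of the 4825 traced barcodes (exact 95% interval 0 to 0.0764%). Of the 254 barcodes, 2 were also present in the traced library, out of 42 that both libraries shared.

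The counts of mural and ependymal genes left few cells near the thresholds, whereas the endothelial share left more. Just inside the rule, 5 cells had 4 mural genes and 1 cell had 5, and just outside it 11 cells had 3. By endothelial share, 15 cells lay between 0.4% and 0.5% and 13 otherwise eligible cells between 0.5% and 0.6%. By ependymal genes, 0 cells had 2 and 1 otherwise eligible cell had 3. A further 3079 barcodes (12.1%) met the rule but for the endothelial ceiling, and these are called mixed droplets. Scrublet, which scores barcodes for likely doublets, called 0 of the 254 mural cells (up to 1.18% allowed), 568 of the 3079 mixed droplets (18.4%) and 2209 of 25411 barcodes (8.69%).

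Some of the 254 cells stood apart. In 5 contractile-low cells, 11 or 12 of 15 fibroblast genes had a UMI, against at most 6 in any of the other 249 cells. These 5 cells held 57 to 612 UMIs of Dcn, which encodes the proteoglycan decorin, 17 to 40 UMIs of the collagen gene Col1a1 and 2 to 7 UMIs of Pdgfra. They had a median of 4 mural genes, and the median was 0 UMIs both for Kcnj8 and for Abcc9. A further contractile-low cell devoted 69.55% of its 14567 UMIs to haemoglobin genes while 7 mural genes had a UMI. Differences that rest on these 6 cells are given with and without them.

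Contractile genes split the cells into those with nearly none and those with much. Of the 4 contractile genes, 0 had a UMI in 91 cells, 1 in 40, 2 in 10, 3 in 89 and 4 in 24. The 10 cells with 2 lay nearest to the cut. Acta2, smooth muscle actin, ranged from 1 to 480 UMIs per cell with a median of 86 in smooth muscle-like cells, and from 0 to 22 with a median of 0 in contractile-low cells. Tagln, which encodes the actin-binding protein transgelin, ranged from 1 to 448 (median 74) and from 0 to 12 (median 0). The ranges overlapped only in their low tails. With every cell thinned at random to 1000 UMIs, 97 of 254 cells (38.2%, exact 95% interval 32.2 to 44.5) still had 3 or more of the genes.

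**Figure D1:**
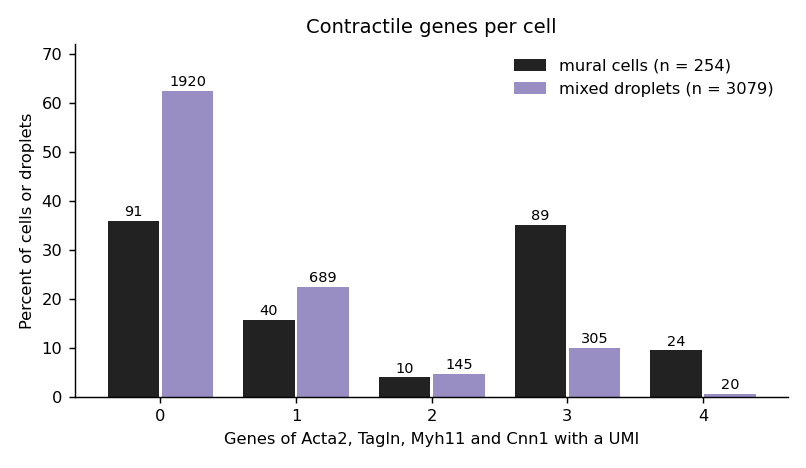
Percent of cells (vertical axis) by the number of the 4 contractile genes with a UMI (horizontal axis), for the 254 mural cells and the 3079 mixed droplets, with the number of barcodes above each bar. Mural cells gather at 0 and at 3 genes with only 10 cells at 2, while 1920 mixed droplets had 0 genes and 20 had 4.

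Genes that the split did not read differed between cells with few and many contractile genes. With 0, 1, 2, 3 and 4 contractile genes, Kcnj8 was at 1561, 922, 494, 74.1 and 0 CPM. Abcc9 was at 1325, 1117, 691, 70.7 and 4.59 CPM in the same order. Vtn, vitronectin, was at 18834, 14078, 16116, 2758 and 161 CPM. The levels of these 3 genes were lowest in the 24 cells that had a UMI of all 4 contractile genes. Rgs5, a brake on G protein signalling that marks pericytes, was at 7409.7, 7885, 9576, 5768 and 1069.6 CPM, so that cells with 3 contractile genes were far nearer to the contractile-low cells than were those with 4. Outside the split, Tpm2, β-tropomyosin, was at 179, 153, 938, 3481 and 6069 CPM, and Pln, the calcium pump inhibitor phospholamban, at 5.42, 0, 0, 639 and 1313 CPM, both highest with 4 contractile genes. Des, desmin, was at 111, 100.1, 247, 269 and 68.9 CPM and did not follow that order. Notch3, the Notch receptor of mural cells, was at 558, 511, 716, 786 and 477 CPM and showed no such order. Median depth was 3828, 4127, 3540.5, 6447 and 8585.5 UMIs in the same order, so that cells with 3 or 4 contractile genes were also the deepest, and the part of depth in these differences was not tested. Kcnj8, Vtn and Rgs5 also counted toward the rule that chose the cells, and cells with contractile genes needed fewer of them to meet it.

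Contractile-low cells held far more of the potassium channel genes of pericytes. Kcnj8, which the rule read, ranged from 0 to 25 UMIs per cell (median 4) in contractile-low and from 0 to 15 (median 0) in smooth muscle-like cells. Its level was 1286 CPM (1197 to 1380.5) against 53.9 CPM (38.99 to 72.6). Abcc9, which the rule did not read, ranged from 0 to 27 UMIs per cell (median 4) against 0 to 19 (median 0). Its level was 1216 CPM (1129.6 to 1308) against 52.6 CPM (37.9 to 71.1), which is 23.1-fold higher (95% interval 16.9 to 32.3) in contractile-low cells. In smooth muscle-like cells 1 cell held 45.2% of the Abcc9 UMIs. Without the highest cell of each part, its difference of log2(CPM + 1) was -5.30 in place of -4.50. A UMI of either gene was found in 135 of 141 contractile-low cells (95.7%) and in 24 of 113 smooth muscle-like cells (21.2%), and of both genes in 113 (80.1%) and 6 (5.31%). At 1000 UMIs per cell, Abcc9 was found in 65.96% of contractile-low, 4.42% of smooth muscle-like and 0.427% of endothelial cells.

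Across the pericyte list, a set of 20 genes, 18 had at least 50 CPM in either part and were compared. On the log2(CPM + 1) scale 0 of the 18 were higher in smooth muscle-like cells by 1 or more, 11 were lower by 1 or more and 7 lay between. Of all 3993 genes compared in this way, 9.99% were higher and 11.5% lower, and below a gene is called higher or lower only where it passed 1 on this scale. The median difference of the list (smooth muscle-like minus contractile-low) was -1.41 against -0.06 over all genes compared. Atp13a5, a P-type ATPase, was at 841 CPM in contractile-low and 127 CPM in smooth muscle-like cells, 6.64-fold (5.36 to 8.31) higher in the former. P2ry14, the receptor for UDP-glucose, was 5.38-fold higher (95% interval 4.44 to 6.56), and Art3, an ADP-ribosyltransferase, was 9.59-fold higher (95% interval 7.67 to 12.1). Ifitm1, an interferon-induced membrane protein, was at 1839 against 216 CPM. Ggt1, a γ-glutamyltransferase of glutathione breakdown, had 122 UMIs in 69 contractile-low cells and 0 in smooth muscle-like cells. Set against a floor of 3 counts over that group, it was at least 54.1-fold higher in contractile-low cells. The peptidase genes Anpep and Enpep, both of pericyte membranes, were 5.41-fold (3.04 to 10.3) and 2.48-fold (1.93 to 3.21) higher in contractile-low cells.

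Other classic pericyte genes differed less. Cspg4, which encodes the NG2 proteoglycan, was at 482 CPM (428 to 541) in contractile-low and 373 CPM (332 to 418) in smooth muscle-like cells. Rgs4, a regulator of G protein signalling, was at 1226 and 1119 CPM. Notch3 was at 554 and 702 CPM, and Gjc1, the gap junction protein connexin 45, at 359 and 291 CPM. All 4 differed by less than 1 on the log2 scale. Pdgfrb, read by the rule, was at 1225 against 416 CPM. Endothelial RNA was also higher in the contractile-low cells, at a median of 0.136% of UMIs per cell against 0.069%, while Kcnj8, Abcc9, Atp13a5, P2ry14 and Ggt1 were all under 5 CPM in endothelial cells.

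**Figure D2:**
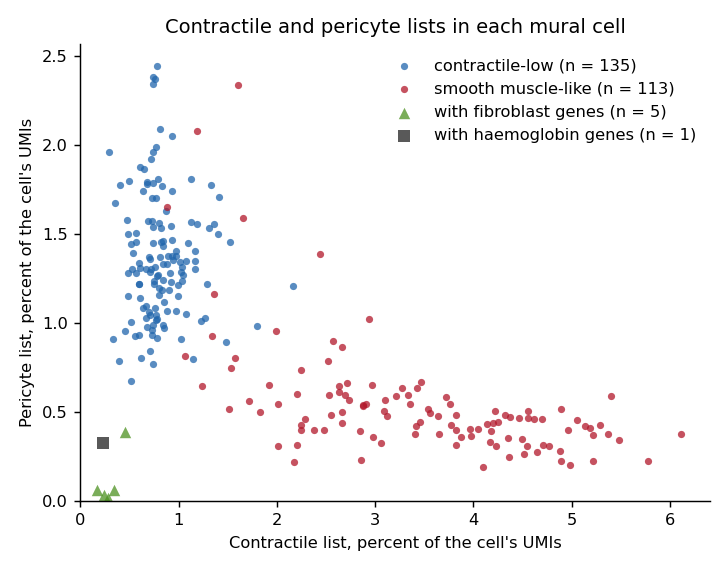
Each point is 1 mural cell, with the contractile list (horizontal axis) and the pericyte list (vertical axis) as percent of the UMIs of the cell. Smooth muscle-like cells have a median of 3.419% contractile and 0.464% pericyte UMIs, the other 135 contractile-low cells 0.778% and 1.315%, and the 5 cells with fibroblast genes (triangles) 0.287% and 0.060%, while the cell with haemoglobin genes (square) lies at 0.227% and 0.323%.

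Seen cell by cell, the lists traded places with a tail between them. Contractile-list UMIs ranged from 0.883% to 6.117% of a cell in smooth muscle-like and from 0.294% to 2.161% in contractile-low cells (the 6 cells that stood apart left out), so the ranges overlapped. Pericyte-list UMIs ranged from 0.190% to 2.336% and from 0.674% to 2.444%. Some smooth muscle-like cells therefore reached pericyte-list shares as high as those of contractile-low cells.

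Most of the contractile machinery was higher in smooth muscle-like cells. Of 24 genes on the contractile list 23 were in the table and were compared, 18 were higher by 1 or more (background 9.99%), 0 were lower and 5 lay between, with a median difference of 3.03. The 4 contractile genes that made the split are not on the list. Among myosin light-chain genes, Mylk, the kinase that starts contraction, was 4.48-fold higher (95% interval 3.88 to 5.20) and Myl6, an essential light chain, 5.37-fold higher (95% interval 4.96 to 5.83). Among filament genes, Tpm1, α-tropomyosin, was at 3299 CPM in smooth muscle-like against 402 CPM in contractile-low cells. Tpm2 was at 4188 against 222 CPM, and Lmod1, leiomodin, which nucleates actin filaments, was 42.2-fold higher (95% interval 21.2 to 98.2). Cytoskeletal linkers followed: Actn1, α-actinin, was at 589 against 15.02 CPM, Flna, filamin A, at 1150.3 against 167 CPM and Pdlim3, a PDZ and LIM protein of actin bundles, at 288 against 1.67 CPM.

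Genes of the sarcoplasmic calcium pump were also higher. Pln, the inhibitor of the sarcoplasmic calcium pump, had 657 UMIs in smooth muscle-like cells and 2 in contractile-low cells, and Atp2a2, the pump itself, was 5.92-fold higher (95% interval 4.79 to 7.39). Map3k7cl was at 622 against 26.7 CPM. Members that did not reach a difference of 1 were Cald1 (caldesmon), Des (desmin), Smtn (smoothelin), Vcl (vinculin) and Ppp1r14a, an inhibitor of myosin phosphatase. Cald1 was at 3497 and 2896 CPM, and Vcl at 323 CPM (285 to 365) and 339 CPM (294 to 389), with overlapping intervals. Myocd, the myocardin co-activator, had 64 UMIs in 43 smooth muscle-like cells and 0 in contractile-low cells, at least 16.02-fold higher against the floor of 3 counts. Srf, its DNA-binding partner, was at 70.2 against 28.4 CPM.

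Besides Pln, Pdlim3 and Myocd, the 15 largest differences toward smooth muscle-like cells included Fbxl22, an F-box protein of muscle, with 233 UMIs against 0 (at least 58.3-fold). Tesc, which encodes the calcium-binding tescalcin, had 158 against 0 UMIs (at least 39.6-fold). Aoc3, the vascular amine oxidase VAP-1, had 142 against 0 UMIs and Palld, the actin scaffold palladin, 447 against 2. Jph2, junctophilin 2, which ties the plasma membrane to the sarcoplasmic reticulum, had 65 against 0 UMIs. The others were Smim5, Trp53i11, Sncg, Susd5, Insc, Slc16a11 and Nr4a2. Nr4a2, an immediate early nuclear receptor, drew 23.8% of its UMIs from 1 cell, the largest such share among the 15.

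**Figure D3:**
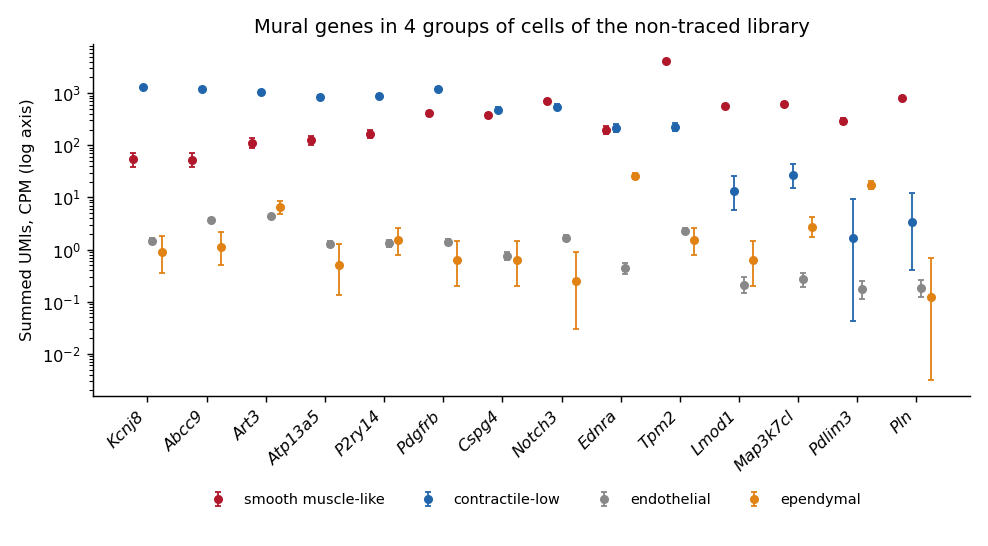
Levels of 14 mural genes in CPM on a log axis, with exact 95% Poisson intervals, in smooth muscle-like, contractile-low, endothelial and ependymal cells of the non-traced library. Kcnj8 to P2ry14 stand higher in contractile-low cells, Cspg4, Notch3 and Ednra lie close in both parts, and Tpm2 to Pln stand higher in smooth muscle-like cells, while endothelial levels stay under 5 CPM for all 14.

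Mural cells, with both parts pooled, were compared with the references. Among 5411 genes of at least 50 CPM in mural cells or in a reference, 9.26% were higher by 1 or more in mural cells than in the higher of endothelial and ependymal cells, and 35.4% were lower, with a median of -0.49. The references were chosen to hold at most 2 of the 10 mural genes. Of the pericyte list, 18 of 18 genes compared were higher, and of the contractile list 18 of 22 were higher and 2 lower. The 20 largest differences, among genes of at least 100 CPM in mural cells, were led by Tpm2 (9.56) and the predicted gene Gm13889 (8.67), which was at 2016 CPM in smooth muscle-like, 1695 in contractile-low, 3.61 in endothelial and 2.64 in ependymal cells. Gucy1a3 and Gucy1b3, the subunits of the guanylate cyclase that senses nitric oxide, were at 505 and 668 CPM in mural cells and at 1.001 and 1.76 CPM in endothelial cells. Their levels in the mural parts were close: Gucy1a3 was at 528 and 474 CPM and Gucy1b3 at 561 and 811 CPM in smooth muscle-like and contractile-low cells. Also among the 20 were Slc38a11, Notch3, Cspg4, the transcription factors Foxs1 and Foxd1, the small proteoglycans Aspn (asporin) and Ogn (osteoglycin), Perp, and Cox4i2, an isoform of a cytochrome c oxidase subunit. The olfactory receptor gene Olfr558 was at 505 CPM in smooth muscle-like and 105 CPM in contractile-low cells. Nrip2, nuclear receptor-interacting protein 2, was at 728 and 30.03 CPM. Pln, Lmod1, Atp13a5, P2ry14 and Pde3a completed the 20. As the levels were pooled, a gene could be among the 20 through 1 part, as Nrip2, Pln and Lmod1 were through smooth muscle-like cells.

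Channels and pumps differed between the parts beyond the ATP-sensitive pair. In this paragraph and the next, smooth muscle-like cells are given first unless stated. Of the ion channel list, a set of 20 genes with 19 outside the rule, 11 were compared. Of these, 3 were higher and 2 lower in smooth muscle-like cells (background 9.99% and 11.5%). The median difference was 0.71 among those 11 and 1.40 over the 19. Abcc9 is also on the pericyte list. Kcna5, a voltage-gated potassium channel, had 94 UMIs against 1, and Kcnk3, a leak potassium channel, was 8.51-fold higher (95% interval 4.31 to 19.1). The voltage-gated calcium channel gene Cacna1c was at 83.95 CPM (65.1 to 107) and 63.4 CPM (44.9 to 87.02), with overlapping intervals. The calcium-activated chloride channel gene Ano1 was at 157 CPM (130.4 to 187) and 207 CPM (172 to 247). Ryr2, the calcium release channel of the sarcoplasmic reticulum, was under 50 CPM, with 13 UMIs in smooth muscle-like and 0 in contractile-low cells.

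Receptors and second-messenger genes of vascular tone gave a mixed pattern. Of 25 genes 24 were in the table and 13 were compared, with 5 higher and 3 lower in smooth muscle-like cells (background 9.99% and 11.5%). The median difference was 0.34 among those 13 and 0.08 over the 24. P2ry14 and Pth1r are also on the pericyte list. Ednra, the endothelin receptor of smooth muscle, was at 198 CPM (168 to 231) and 214 CPM (178 to 254) and did not separate the parts. Ramp1, the receptor partner that makes the CGRP receptor, had 195 UMIs against 3, but its partner Calcrl had only 28 and 22. Htr1b, a serotonin receptor, was 13.5-fold higher (95% interval 5.58 to 42.6) in smooth muscle-like cells. Pde3a, which degrades cyclic AMP, was 10.7-fold higher (95% interval 7.41 to 16.1), Pde5a, which degrades cyclic GMP, 2.18-fold higher (95% interval 1.81 to 2.64), and Rgs7bp, a partner of RGS proteins, 7.33-fold higher (95% interval 4.85 to 11.6). Without the 6 cells that stood apart the difference of Pde5a was 0.96 in place of 1.12. Toward contractile-low cells, Adora2a, an adenosine receptor, was 2.89-fold higher (95% interval 1.91 to 4.45) and Pth1r, the parathyroid hormone receptor, 2.87-fold higher (95% interval 2.28 to 3.63), beside P2ry14. Agtr1a, the angiotensin receptor, had 1 UMI in each part.

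**Figure D4:**
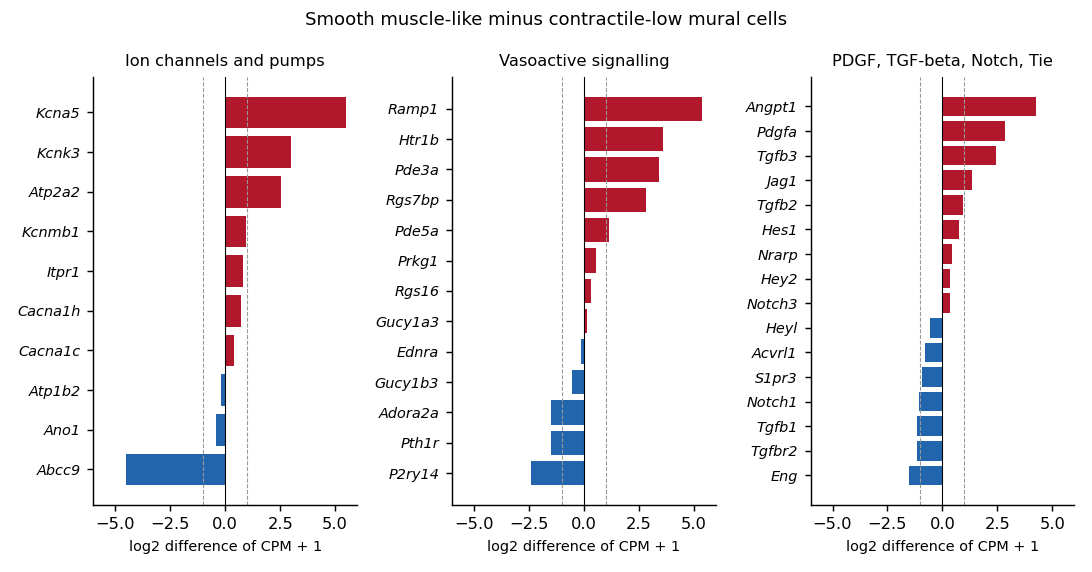
Differences of log2(CPM + 1), smooth muscle-like minus contractile-low mural cells (horizontal axis), for the compared genes of 3 lists (1 channel gene is not shown), with dashed lines at -1 and 1. Kcna5, Ramp1 and Angpt1 reach the largest positive differences (5.48, 5.35 and 4.24), and Abcc9, P2ry14 and Eng the most negative (-4.50, -2.42 and -1.50) in their lists.

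Growth factor and Notch genes differed in both directions. Of 24 genes 16 were compared, 4 were higher and 4 lower in smooth muscle-like cells (background 9.99% and 11.5%). The median difference was 0.35 among those 16 and 0.23 over the 24. The 4 higher genes encode ligands: Angpt1, the angiopoietin that activates endothelial Tie2, had 90 UMIs against 3, Pdgfa was 7.20-fold higher (95% interval 5.10 to 10.4), Tgfb3 5.82-fold higher (95% interval 2.78 to 14.1) and the Notch ligand gene Jag1 2.57-fold higher (95% interval 1.97 to 3.40). The 4 lower genes were the TGF-β receptor genes Tgfbr2 and Eng (endoglin), the receptor gene Notch1 and the ligand gene Tgfb1. Eng was at 77.7 and 222 CPM in smooth muscle-like and contractile-low cells, against 674 CPM in endothelial cells. Endothelial cells also held 229 CPM of Tgfbr2, 201 of Notch1 and 101 of Tgfb1, whereas Notch3 was at 1.66 CPM there, and the part of endothelial RNA in the 4 lower genes was not tested. Without the 6 cells the difference of Tgfbr2 was -0.92 in place of -1.16. With smooth muscle-like cells first, the Notch target Heyl was at 140.3 and 205 CPM, Hey2 at 158 and 123 CPM and Hes1 at 1164 and 687 CPM, all within 1 on the log2 scale. S1pr3, a sphingosine 1-phosphate receptor, was at 187 and 357 CPM. Pdgfra, the receptor of fibroblasts and oligodendrocyte precursors, had 24 UMIs, all of them in the 5 cells with fibroblast genes.

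Transcription factor genes differed about as often as all genes. Of 24 genes 22 were in the table and 18 were compared, with 3 higher (Myocd, Srf and Mef2c), 1 lower (Foxd1; background 9.99% and 11.5%) and a median difference of -0.21 among those 18 and -0.26 over the 22. Mef2c, a myogenic factor, was at 1019 against 507 CPM, and its difference was 0.85 without the 6 cells. Foxd1 was at 165 CPM in smooth muscle-like and 384 CPM in contractile-low cells, and Foxf2, needed for brain pericytes, at 43.9 and 88.4 CPM with 140.4 CPM in endothelial cells. Tbx2, Foxc1, Zic1, Nr2f2, Ebf1 and Heyl differed by less than 1 between the parts. Tbx18, a mural cell factor, had 15 and 17 UMIs.

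Basement membrane genes differed by chain. Of 20 genes 19 were compared, 5 were higher and 6 lower in smooth muscle-like cells (background 9.99% and 11.5%). The median difference was -0.23 among those 19 and -0.40 over the 20. Among laminin α chains, Lama2 was 5.85-fold higher (95% interval 3.86 to 9.16) in contractile-low cells, whereas Lama5 was 8.18-fold higher (95% interval 4.14 to 18.4) in smooth muscle-like cells. Among β chains, Lamb1 had 77 UMIs in contractile-low and 6 in smooth muscle-like cells, whereas Lamb2 was 2.04-fold higher (95% interval 1.64 to 2.56) in smooth muscle-like cells. The γ chains Lamc1 and Lamc3 and the linker nidogen 1 (Nid1) were 2.43-fold (1.91 to 3.12), 3.61-fold (2.57 to 5.13) and 3.11-fold (2.45 to 3.98) higher in contractile-low cells. The collagen IV genes differed by less than 1, with Col4a1 at 459.9 and Col4a2 at 301 CPM in smooth muscle-like and at 682 and 324 CPM in contractile-low cells. The muscle integrin genes Itga7 and Itga8 were 2.04-fold higher (95% interval 1.44 to 2.93) and 4.51-fold higher (95% interval 2.36 to 9.46) in smooth muscle-like cells. Without the 6 cells, the difference of Itga7 was 0.86 and that of Col18a1 moved from 1.52 to 6.13. Endothelial cells held 0.912 CPM of Lama2 and 0.555 of Lamb1, but 42.2 of Lama5, 153 of Lamb2 and 369 of Col4a1.

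Most of the solute carriers and ATPases compared were higher in contractile-low cells. Slc6a20a, Slc19a1, Slc38a11 and Atp13a5 are also on the pericyte list, so the 2 lists are not separate results. Of 18 genes, ATPases included, 10 were compared, 1 was higher and 6 were lower in smooth muscle-like cells (background 9.99% and 11.5%), with a median difference of -2.33 among those 10 and -1.06 over the 18, or -0.77 over the 18 with genes at 0 in 1 part set at their bound. With contractile-low cells first, Slc6a20a, a proline transporter, was at 365 against 61.4 CPM, Slc12a2, a sodium, potassium and chloride cotransporter, at 449 against 90.2 CPM and Slc16a12, a monocarboxylate carrier, at 138 against 26.3 CPM. Slc6a13, the GABA transporter GAT2, had 113 UMIs in 51 contractile-low cells against 1, and its difference was -6.39, or -5.70 without the 6 cells. Slc6a13 is also on the fibroblast list. Slc22a8, the organic anion transporter OAT3, was at 220.2 and 20.05 CPM, with 352 CPM in endothelial cells. Slc2a1, the glucose transporter of barrier endothelium, was at 123 and 78.9 CPM against 1552 CPM in endothelial cells.

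Many immune genes were sparse, but some were found in most cells. Of 25 genes 12 were compared, 0 were higher and 4 lower in smooth muscle-like cells (background 9.99% and 11.5%). The median difference was -0.91 among those 12 and -0.84 over the 25. Ifitm1, also on the pericyte list, was 1 of the 4 lower genes. It had a median of 0 UMIs per smooth muscle-like and 7 per contractile-low cell. In the same order, Ifitm3 had medians of 3 and 4 UMIs and H2-D1 of 2 and 2. Saa1, serum amyloid A, had 97 UMIs in 46 contractile-low and 0 in smooth muscle-like cells, at least 43.1-fold higher against the floor, and stood at 0.344 CPM in endothelial cells. Ccl11, the chemokine eotaxin, had 66 UMIs in 14 contractile-low and 0 in smooth muscle-like cells, a difference of -6.80, or -5.42 without the 6 cells. Ccl11 is also on the fibroblast list. Cxcl12, a chemokine, was at 397 and 82.7 CPM in contractile-low and smooth muscle-like cells, beside 2938 CPM in endothelial cells. Il34, a ligand of the microglial receptor CSF1R, was at 162 CPM (135 to 192) in smooth muscle-like and 290.3 CPM (249 to 337) in contractile-low cells against 0.561 CPM in endothelial cells. Serping1, the C1 inhibitor gene, was at 138 and 180.2 CPM in the same order, and its difference turned from -0.38 to 1.70 without the 6 cells. All 23 UMIs of Il33 and all 10 UMIs of Ccl7 were in the 6 cells. Lcn2, C3 and C4b had 0 UMIs in the 254 cells, which allows up to 2.15 CPM for each.

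Immediate early genes, which tissue dissociation is known to induce, were abundant in the summed UMIs of both parts. All 19 genes were compared, with 1 higher and 2 lower in smooth muscle-like cells (background 9.99% and 11.5%) and a median difference of -0.16. With smooth muscle-like cells first, Fos was at 4452 and 5209 CPM, Egr1 at 1202 and 2037 CPM and Jun at 2230.4 and 4083 CPM. These sums rested on an uneven spread over cells. The median cell was at 1477.5 and 680.6 CPM for Fos and at 907.7 and 531.8 CPM for Jun, the reverse order. For Egr1 the median cell was at 235.1 and 346.9 CPM. Nr4a1 was 2.71-fold higher (95% interval 2.14 to 3.48) in smooth muscle-like cells. The stress genes Hspa1a and Hspa1b, near-identical copies whose reads may not be told apart, were 3.18-fold (2.90 to 3.48) and 6.43-fold (5.25 to 7.95) higher in contractile-low cells. The part of the dissociation in the differences of this list was not tested.

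The largest differences toward contractile-low cells came in large part from the 6 cells that stood apart. Hbb-bs, Hba-a2, Hbb-bt and Hba-a1, haemoglobin genes with near-identical copies among them, led the 15 with differences of -10.28, -9.30, -9.08 and -9.01, and 5396 UMIs of Hbb-bs were in 1 cell. Of 15 fibroblast genes 9 were compared and all 9 were lower (background 11.5%). The median difference was -4.72 among those 9 and -4.39 over the 15, or -3.41 over the 15 with genes at 0 in 1 part set at their bound. Without the 6 cells the haemoglobin differences were -2.28, 0.27, -1.14 and 1.05. Dcn moved from -8.92 to -3.45, Apod, apolipoprotein D, from -8.22 to -1.11, Trf, transferrin, from -7.93 to -2.67 and Lum, lumican, from -7.26 to -1.54. Of the collagen genes on the list, Col1a1 turned from -4.24 to 3.62 and Col1a2 from -1.10 to 0.45, as did Islr from -1.94 to 0.78, whereas Col3a1 kept its direction at -1.30 in place of -3.32. Ggt1, Saa1 and Sfrp2, a secreted antagonist of Wnt ligands, did not rest on them, with differences of -7.86, -7.50 and -7.77 without the 6 cells. Tgfbi, Col15a1 and Slc6a13 moved to -4.79, -4.32 and -5.70. Of the 399 genes higher and the 461 lower, 375 and 416 stayed past 1 without the 6 cells, and 396 and 453 without the highest cell of each gene. For these counts the set of genes compared was not filtered again.

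Microglial, oligodendrocyte, neuronal and Schwann cell markers were mostly at or near 0, whereas some ependymal and fibroblast genes were found in many cells. The microglial and macrophage genes Cx3cr1, P2ry12, Csf1r, C1qa, Mrc1 and Tyrobp had 0 UMIs in the 254 cells, and 0 cells had 3 or more of the 12 genes of that list, of which 10 had 0 UMIs in each part. The oligodendrocyte genes Mog, Mag and Opalin, the neuronal genes Rbfox3 and Gad1 and the Schwann cell gene Sox10 also had 0 UMIs, and 0 cells had 3 or more genes of any of those lists. The summed neuronal list was 106.5 CPM in smooth muscle-like and 277 CPM in contractile-low cells, most of it from Meg3 (81.4 and 260.3 CPM), which was at 2.05 CPM in endothelial cells. Of the astrocyte list, Aqp4, the water channel of astrocyte endfeet, had 1 UMI in smooth muscle-like and 5 in contractile-low cells, and Gfap, their intermediate filament, had 1 and 0. At least 3 astrocyte genes were found in 1 smooth muscle-like and 6 contractile-low cells. The ependymal genes outside the rule summed to 633 and 1552 CPM. Rarres2, chemerin, led them at 349.6 and 863 CPM in 88.2% of mural cells. At least 3 of these 18 genes had a UMI in 34 of 113 smooth muscle-like and 63 of 141 contractile-low cells. Dnah12 and Cfap77 had 0 UMIs and Foxj1, in the rule, 3. The fibroblast list ranged from 0% to 0.249% of UMIs in smooth muscle-like and from 0% to 6.664% in contractile-low cells, with medians of 0.017% and 0.042%. At least 3 of its 15 genes had a UMI in 3 smooth muscle-like and 27 contractile-low cells, the 5 that stood apart among the latter. Of the genes on that list, Col1a2 was found in 61.1% of smooth muscle-like cells, at 177 CPM.

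Endothelial genes that the rule did not read remained at a small share of their endothelial level. Over 25 such genes, the median level in mural cells was 6.98% of that in endothelial cells, with 4.96% in smooth muscle-like and 10.4% in contractile-low cells. In ependymal cells, another cell type that should lack them, it was 2.51%, and in mixed droplets 87.3%. All 25 were lower by 1 or more in mural cells than in the higher reference (background 35.4%). Bsg, basigin, the most abundant of them in endothelial cells at 16669 CPM, was at 1079 CPM in smooth muscle-like and 1850.3 CPM in contractile-low cells. Mfsd2a, a lipid transporter of barrier endothelium, was at 3.10% and 5.31% of its endothelial level. Several genes stood above the rest. Esam, an adhesion molecule, was at 38.8% and 48.3% of the endothelial level and had a UMI in 88.2% of mural cells. Emcn, the sialomucin endomucin, was at 30.4% in contractile-low but 4.68% in smooth muscle-like cells, 6.49-fold higher (95% interval 4.42 to 9.82) in the former, while Eng was at 32.9% and 11.5%. Bsg was 1.72-fold (1.57 to 1.88) higher in contractile-low cells. The part of carried-over endothelial RNA in the levels of these genes was not tested.

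**Figure D5:**
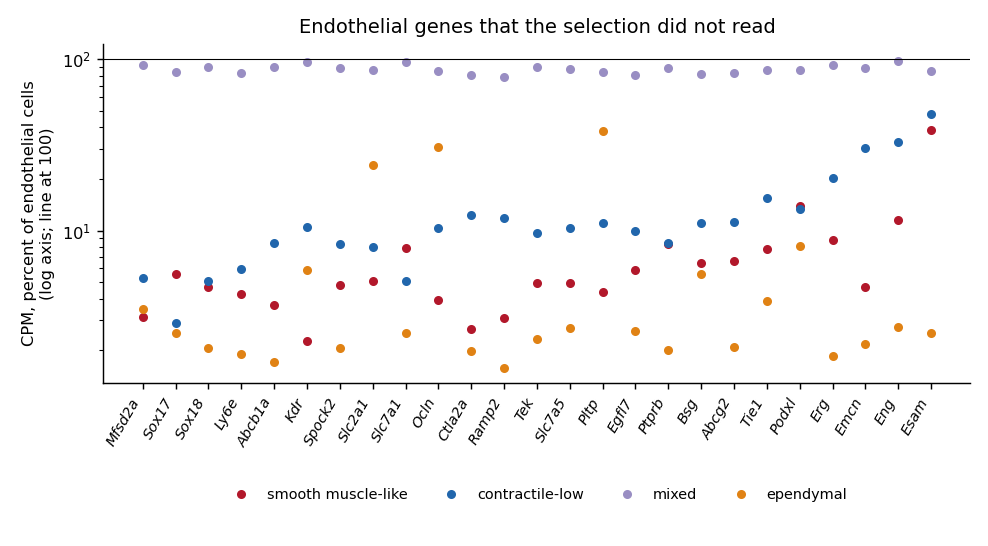
Level of 25 endothelial genes that the rule did not read, as percent of their CPM in endothelial cells (log axis, line at 100), in smooth muscle-like and contractile-low mural cells, mixed droplets and ependymal cells. Mixed droplets lie close to the line, and mural cells lie far under it, with Esam, Eng and Emcn highest in contractile-low cells.

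Mixed droplets held the same mural genes at lower levels and fewer contractile genes. They had a median of 11309 UMIs against 4789 in mural cells, and 8 endothelial genes made up a median of 2.371% of their UMIs. The median level of the pericyte list was 27.1% of that in mural cells and that of the contractile list 19.7%. Acta2 was at 391 CPM against 7573 CPM in mural cells, Abcc9 at 252 against 552 CPM and Cspg4 at 104 against 420.1 CPM. At least 3 contractile genes had a UMI in 325 of 3079 mixed droplets (10.6%, exact 95% interval 9.49 to 11.7) and in 44.5% of mural cells. At 1000 UMIs per cell the shares were 3.96% (3.30 to 4.71) and 38.2% (32.2 to 44.5). Since endothelial RNA takes up part of a mixed droplet, thinning leaves fewer mural UMIs in it, and the shares do not compare equal amounts of mural RNA.

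The sort had been set on CD133, encoded by Prom1, and excluded CD45, encoded by Ptprc. Prom1 had 33 UMIs in 28 of the 254 mural cells (11.02%), at 18.8 CPM (10.5 to 31.00) in smooth muscle-like and 30.03 CPM (17.8 to 47.5) in contractile-low cells. Endothelial cells held 331 CPM and ependymal cells 26.1 CPM. The level in mural cells was therefore within counting error of that in ependymal cells and far under that in endothelial cells. At 1000 UMIs per cell, Prom1 had a UMI in 2.36% of mural, 2.89% of ependymal and 26.4% of endothelial cells. Ptprc and Clec9a had 0 UMIs in the 254 cells, which allows up to 2.15 CPM. Since the paper calls mice of this genotype Clec9a-deficient, the 0 of Clec9a says nothing of these cells. The reporter row WPRE-tdTomato had 102 UMIs in 82 mural cells of this tdTomato-negative sort, at 87.7 CPM (68.4 to 111) in smooth muscle-like and 53.4 CPM (36.5 to 75.4) in contractile-low cells. Endothelial cells of the library were at 64.8 CPM and ependymal cells at 71.3 CPM, and mural cells as a whole, at 72.99 CPM (59.5 to 88.6), did not differ from them beyond counting error. The row SV40poly(A)signal, another part of the construct, was at 1611 CPM in mural, 1732 in endothelial and 773 in ependymal cells.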

How the data were processed

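Live CD45- CD133+ spinal cord cells were sorted into a traced and a non-traced tube, and each was sequenced as 1 library with the 10x Chromium 3′ kit. Per the labels and the study's methods, reads were aligned to mm10 with reporter sequences added (Cell Ranger 3.0.2, STAR 2.5.1b), and the submitters' processing notes also name R 3.6.0 and Seurat 3. The deposited values are raw UMI counts per gene and barcode, which the authors had filtered for cells but not normalized. The libraries held 233318692 and 46530507 UMIs, and 0 columns belonged to other samples. Such kits read the 3′ end, and genes with near-identical copies may share counts.

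Cells were selected by the rule stated above, with no further filter. 0 of 254 mural cells exceeded 10% mitochondrial UMIs. Scrublet (scanpy 1.11.5) was run but no barcode was removed, and how the authors treated doublets before deposit was not given in the sources used here. Endothelial references had a UMI of at least 4 of the 8 endothelial genes, and ependymal references of at least 4 of the 6 ependymal genes and under 0.5% endothelial UMIs, each with at most 2 of the 10 mural genes. UMIs were summed over the cells of each group and scaled to a common total (CPM). Differences are of log2(CPM + 1), for genes of at least 50 CPM in either group, with genes of the rule left out. Cells are not replicates and each group has 1 library, so no p-value was computed. Intervals are exact at 95% (binomial, Poisson, or conditional for folds). For genes, a count of 0 was read against a floor of 3 counts over the group. Thinning drew 1000 UMIs per cell at random, and no cell was shallower. The members and gene lists were chosen with earlier results of these data known. Genes named are those of the lists, the 15 largest differences in each direction and the 20 genes (at least 100 CPM) highest over the references, and some genes of the lists are counted but not reported here. Calls were checked on simulated sums with Poisson noise only, so the check does not cover the spread between cells. Promoters came from RefSeq (GRCm38.p6) and gene positions from GENCODE M21. Python 3.11.15, numpy 2.4.6, scipy 1.17.1, pandas 2.3.3 and matplotlib 3.10.9 were used.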

Additional observations from a re-analysis of the deposited data

How the results depend on the processing

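No paired analysis was possible because each group is 1 library, and for the same reason no replicate could be left out. The medians of the contractile and pericyte lists kept their sign under the alternatives run. Single genes changed sign without the 6 cells, among them Serping1 (to 1.70), Hba-a1 (1.05), Hba-a2 (0.27), Col1a1 (3.62), Col1a2 (0.45) and Islr (0.78), all from below 0. With an endothelial ceiling of 0.25% or 1% in place of 0.5%, mural cells made up 0.826% or 1.33% of the library, and the median level of endothelial genes outside the rule was 4.99% or 16.8% of the endothelial level. The other 6 alternatives gave 0.976% to 1.09% and 6.96% to 7.53%. Asking for all 4 contractile genes in place of 3 gave a smooth muscle-like share of 9.45% and a contractile median of 1.36. The thinned gate gave a contractile median of 2.37. The other alternatives gave shares of 38.7% to 48.6%, contractile medians of 2.71 to 3.40 and pericyte medians of -1.76 to -1.12. The counts of genes higher and lower depended on the filter on low genes. A minimum of 10 CPM gave 1022 and 1391, and no minimum gave 2572 and 3128. The other 15 alternatives gave 293 to 469 and 334 to 495. As reported, fewer genes were higher than lower (399 and 461), but more were higher with median-ratio scaling (469 and 384) and with the 1% ceiling (361 and 334). Leaving out the 6 cells that stood apart gave 409 and 469, and leaving out the highest cell of each gene gave 399 and 432; both were chosen after seeing the data. Depth limits genes near the floor of 3 counts, which is 3.76 CPM in smooth muscle-like and 5.01 CPM in contractile-low cells.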

Other observations

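Barcodes of the traced library that passed the mural rule but for the endothelial ceiling numbered 13 of 4825 (0.269%, exact 95% interval 0.144 to 0.460), against 3079 of 25411 (12.1%, 11.7 to 12.5) in the non-traced library. With 1 library per group the difference between the sorts could not be set against a spread.

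Mitochondrial genes made up a median of 4.77% of UMIs in smooth muscle-like and 3.58% in contractile-low cells. The number of genes with a UMI had a median of 2585 and 1884 in the same order. Outside the contractile and pericyte lists, Pmp22, known from the myelin of peripheral nerve, was at 85.2 CPM in smooth muscle-like and 16.7 CPM in contractile-low cells, against 112 CPM in endothelial cells.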
